A study of Mus musculus with 2 samples.

Results

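The miR-26 family of the mouse consists of 3 hairpin genes, Mir26b, Mir26a-1 and Mir26a-2, and their reads were followed here among the 2202 annotated microRNA genes counted in the adrenal gland, the organ that makes steroids in its cortex and catecholamines in its medulla. The genes were chosen by name, from their place in the Ctdsp host genes. Small RNA was sequenced from adrenal tissue of female B6CASTF1/J mice (hybrids of the C57BL/6J and CAST/EiJ strains) at 10 days of age. The samples form 1 untreated group of 2 libraries, replicate 1 from the animal numbered 3 and replicate 2 from the animal numbered 4, which the labels call biological replicates although both carry a single donor entry. The spread between them may in part be technical.

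MicroRNA genes are transcribed into hairpins, from which one or both arms are cut out as mature products, called 5p and 3p, that guide Argonaute proteins to messenger RNAs through the seed near their 5′ end. The miR-26 hairpins lie in introns of the Ctdsp genes, which encode small phosphatases of the RNA polymerase II C-terminal domain that help to keep neuronal genes silent in non-neuronal cells. In zebrafish, miR-26b has been shown to repress its own host gene ctdsp2 during neurogenesis. In mammals miR-26 is known for repressing Ezh2, a histone methyltransferase, and Lin28b, which blocks let-7 maturation, and as a microRNA lowered by Myc in tumours.

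The sequences decide which reads can be assigned to which gene, so the hairpins are shown first, as RefSeq gives them on GRCm38.p6, with the mature products in capitals.
Mir26b hairpin: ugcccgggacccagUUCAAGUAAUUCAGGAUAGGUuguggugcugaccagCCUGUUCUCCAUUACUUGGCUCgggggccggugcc
Mir26a-1 hairpin: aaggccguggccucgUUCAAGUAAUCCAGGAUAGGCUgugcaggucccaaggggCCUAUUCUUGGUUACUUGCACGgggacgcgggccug
Mir26a-2 hairpin: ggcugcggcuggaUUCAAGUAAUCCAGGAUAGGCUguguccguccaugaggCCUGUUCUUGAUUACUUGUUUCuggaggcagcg
The hairpins are 85, 90 and 84 bases long in that order, with a GC content of 58.8%, 60.0% and 53.6%. The mature products are shown next with the seed, bases 2 to 8, in capitals.
miR-26b-5p: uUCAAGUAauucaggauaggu
miR-26a-5p, from both Mir26a genes: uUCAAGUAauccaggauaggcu
miR-26b-3p: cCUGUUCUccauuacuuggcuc
miR-26a-1-3p: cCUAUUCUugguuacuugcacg
miR-26a-2-3p: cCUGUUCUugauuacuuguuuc
The 5p products of all 3 genes share 1 seed, and among the 1679 distinct products of the RefSeq table only these 2 sequences, from these 3 genes, carry it. Counted from the 5′ end, miR-26a-5p differs from miR-26b-5p by C11U and C21U over the 21 bases they have in common, outside the seed. Among the 3p products, miR-26a-2-3p and miR-26b-3p share a seed, whereas miR-26a-1-3p differs from miR-26a-2-3p by A4G within it and by G11A, C19U, A20U, C21U and G22C beyond it.

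All 3 genes lie on the plus strand of mm10, the build of the deposited counts, inside an intron of a protein-coding gene on the same strand, by GENCODE M21. Mir26b (ENSMUSG00000065468.1) spans positions 74394310 to 74394394 of chromosome 1, in intron 4 of 6 of Ctdsp1. Mir26a-1 (ENSMUSG00000065513.1) spans positions 119031796 to 119031885 of chromosome 9, in intron 5 of 7 of one coding transcript of Ctdspl and intron 4 of 6 of another. Mir26a-2 (ENSMUSG00000065430.1) spans positions 126995530 to 126995613 of chromosome 10, in intron 5 of 7 of Ctdsp2. In each of these transcripts the hairpin thus sits in the third intron from the last. The introns themselves differ in size, at 564 bases in Ctdsp1, 3283 in Ctdspl and 1946 in Ctdsp2, and the whole host genes span 5.78 kb, 118 kb and 21.3 kb. No annotated gene overlaps any of the 3 hairpins on the opposite strand.

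The Mir26a hairpins are identical to each other over 25 bases that start at the first base of the 5p product and run 3 bases past its end.
Shared by Mir26a-1 and Mir26a-2: uucaaguaauccaggauaggcugug
A read that lies wholly within this stretch fits both genes equally well, and miR-26a-5p itself was found in both genes and in no other of the 141767 annotated transcripts. Of the 22-base windows of each hairpin, 4 of 69 in Mir26a-1 and 4 of 63 in Mir26a-2 occur in another hairpin, against 0 of 64 in Mir26b. At 26 bases no window of any of the 3 is shared. The longest run that Mir26b has in common with any other hairpin among the 1005 of the RefSeq table is 11 bases. The 3p products of all 3 genes were each found in their own gene alone. The deposited tables set reads with several alignments aside before counting genes, so the counts of Mir26a-1 and Mir26a-2 leave out reads confined to the shared stretch. They can hold reads of the 3p arms and reads that extend past the stretch, which the tables do not separate, and they are not levels of miR-26a. A genome sequence was not used here, so matches outside annotated transcripts were not looked for.

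**Figure D1:**
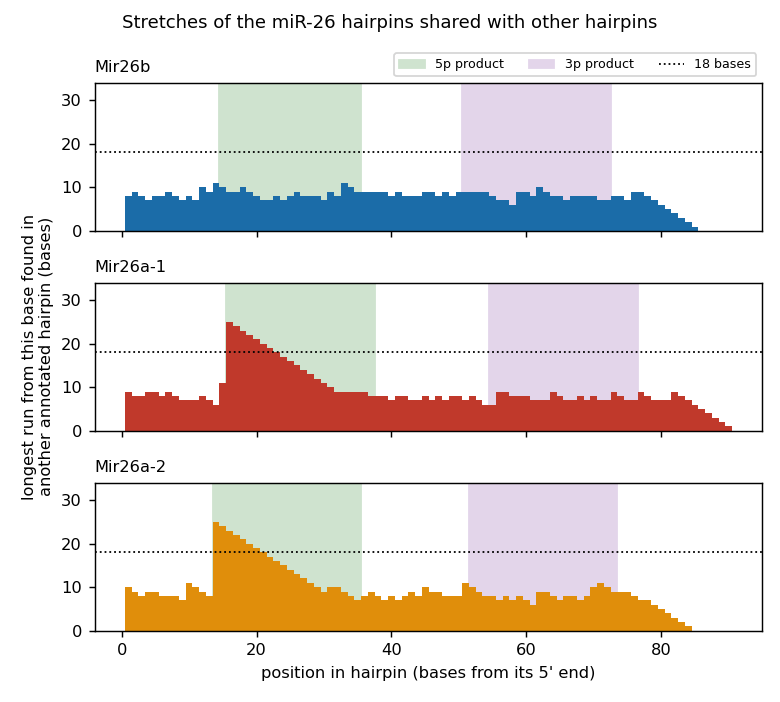
For each base of the Mir26b, Mir26a-1 and Mir26a-2 hairpins, bars give the longest run of bases starting there that occurs in another annotated mouse hairpin, with the 5p and 3p products shaded and a dotted line at 18 bases. Runs of up to 25 bases start in the 5p product of both Mir26a genes, whereas no run in Mir26b exceeds 11.

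Mir26b was one of the abundant microRNA genes of the gland, and the reads assignable to the Mir26a genes were few. A level is given as CPM, the counts per 1000000 reads assigned to microRNA genes, without division by length, since the products are all 21 or 22 bases long. Replicate 1 gave 20128 reads of Mir26b, or 9948 CPM with an exact Clopper-Pearson 95% interval of 9811 to 10085 CPM. Replicate 2 gave 74280 reads, or 23149 CPM with an interval of 22984 to 23314 CPM. It took 0.995% of assigned reads in replicate 1 and 2.31% in replicate 2, a mean of 1.65% ± 0.933 (SD, n = 2), and ranked 22 and 13 among all microRNA genes. Mir26b was thus abundant in both libraries, at levels whose counting intervals do not overlap.

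Mir26a-2 had 105 reads in replicate 1 and 225 in replicate 2, or 51.9 CPM (42.4 to 62.8) and 70.1 CPM (61.3 to 79.9). Its mean was 61.0 ± 12.9 CPM (SD, n = 2). The counting intervals of its levels overlap slightly.

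Mir26a-1 had 8 reads in replicate 1 and 225 in replicate 2, or 3.95 CPM (1.71 to 7.79) and 70.1 CPM (61.3 to 79.9), a mean of 37.0 ± 46.8 CPM (SD, n = 2). In replicate 2 the Mir26a genes were thus counted at exactly the same number of reads, while in replicate 1 Mir26a-1 was far below Mir26a-2. A count of 0 would allow up to 3 reads, worth 1.48 CPM in replicate 1 and 0.935 in replicate 2, so Mir26a-1 was above that limit in both. None of the 3 genes had a read on the opposite strand in either library, and their counts irrespective of strand were identical to those on their own strand. The libraries name no molecular identifiers, so all intervals and limits cover counting error only.

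**Figure D2:**
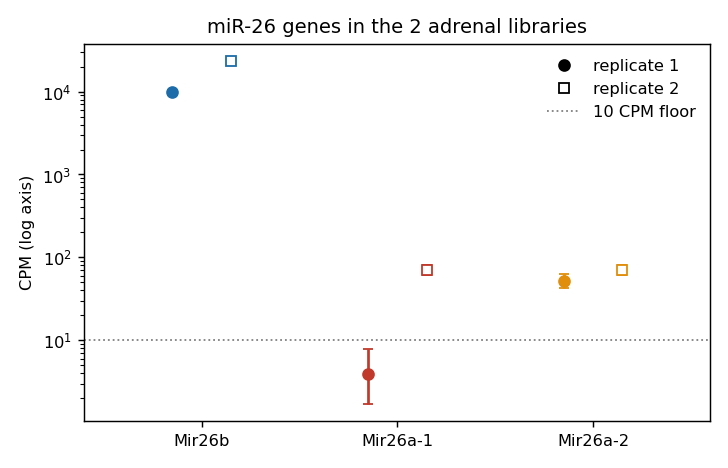
CPM on a log axis of each miR-26 gene in replicate 1 (filled circles) and replicate 2 (open squares), with exact 95% counting intervals and the 10 CPM floor as a dotted line. Mir26b stands at 9948 and 23149 CPM, Mir26a-2 at 51.9 and 70.1 CPM, and Mir26a-1 below the floor in replicate 1 alone, at 3.95 CPM against 70.1 CPM in replicate 2.

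In the order of mean CPM, Mir26b ranked 16, Mir26a-2 239 and Mir26a-1 262. The ranges of both libraries overlap between Mir26b and each of its neighbours, Mir122 of the liver (26733 CPM in replicate 1 and 9284 in replicate 2) above it and Mir335 (16496 and 15441 CPM) below it, so these places in the order are not separated by the spread. The same holds for Mir26a-2 between Mir92b (67.7 and 54.5 CPM) and Mir3068 (83.5 and 38.0 CPM), and for Mir26a-1 between Mir293 (25.7 and 48.9 CPM) and Mir664 (35.1 and 35.5 CPM). Of the 329 microRNA genes with at least 10 CPM in either library, 145 (44.1%) lie inside a protein-coding gene on its strand. Among those 145, whose median mean level was 163 CPM, Mir26b ranked 7, Mir26a-2 97 and Mir26a-1 111.

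Ratios within a library do not depend on the scaling between libraries. For each read of the Mir26a genes together there were 178 reads of Mir26b in replicate 1 (exact 95% limits 148 and 216) and 165 in replicate 2 (limits 150 and 181), on average 172 ± 9.23 (SD, n = 2). These intervals overlap, and a difference in this ratio between the libraries was not tested. Split by gene, the picture differs. Mir26b gave 192 reads per read of Mir26a-2 in replicate 1 (158 to 234) and 330 in replicate 2 (290 to 378), and 2516 per read of Mir26a-1 in replicate 1 (1277 to 5829) and 330 in replicate 2 (290 to 378). Mir26a-1 supplied 7.08% of the Mir26a reads in replicate 1 (exact 95% limits 3.11% and 13.5%) and 50.0% in replicate 2 (limits 45.3% and 54.7%), on average 28.5% ± 30.3 (SD, n = 2). Reads with several alignments, among which miR-26a-5p reads would fall, numbered 1318731 in replicate 1 and 2329968 in replicate 2, or 11670 and 5178 per counted Mir26a read, and the tables do not say which genes they fit.

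Mir26b and Mir26a-2 were lower in replicate 1 than in replicate 2, and so was Mir26a-1, whose direction was fixed by the floor of 10 CPM in either library, which it reached through replicate 2 alone. The libraries were compared with a two-sided exact binomial test conditional on each gene's total, with TMM-scaled library sizes and p adjusted over all 329 genes. It sets these libraries against counting error and compares no conditions. Between the libraries 244 of the 329 genes passed at 0.05 (74.2%), of which 124 were lower in replicate 1 (37.7% of those tested), so passing is the usual outcome at this floor. A log2 ratio is replicate 1 over replicate 2, with a pseudocount of 1 CPM that understates differences of low genes, and its exact 95% interval is without the pseudocount. Mir26b had a log2 ratio of -1.27 (interval -1.29 to -1.24) and passed the test. Mir26a-2 had a log2 ratio of -0.47 (interval -0.83 to -0.14), with an adjusted p of 0.00720 in this exact test. Over all 329 genes the median log2 ratio was 0.01 and the SD 1.01.

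Mir26a-1 had a log2 ratio of -3.89 (interval -5.43 to -3.19). The floor of 10 CPM admitted this gene through replicate 2 alone, so its p is not given. Its place among the genes is a description only. With the pseudocount its log2 ratio was the largest in size of the 329 genes. Without it, a setting tried after the values were seen, Mir26a-1 was the lowest at -4.20, and Mir544 was larger in size at 5.01 (interval 2.37 to 10.38), from 21 reads in replicate 1 and 1 in replicate 2. Mir544 was admitted through replicate 1 alone (10.4 CPM, against 0.312 in replicate 2). Among the 75 genes with a mean of 20 to 100 CPM, a band set after the values were seen, log2 ratios ran from -3.89 for Mir26a-1 itself to 2.65, with an SD of 1.02. The next lowest was -3.45 for Mir200a (3.95 CPM in replicate 1 and 51.7 in replicate 2), also admitted through replicate 2 alone. A log2 ratio of -1 or less was called for 36 of the 329 genes (10.9%), Mir26b among them. The 36 also hold Mir26a-1 and several other genes admitted through replicate 2 alone, Mir200a and Mir669e among them, whose direction the floor fixed. The share of 10.9% is raised by such genes. Of the 329 genes, 302 reached the floor in both libraries. In all, 27 genes had a log2 ratio at or below that of Mir26b, a count that includes genes admitted through replicate 2 alone.

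**Figure D3:**
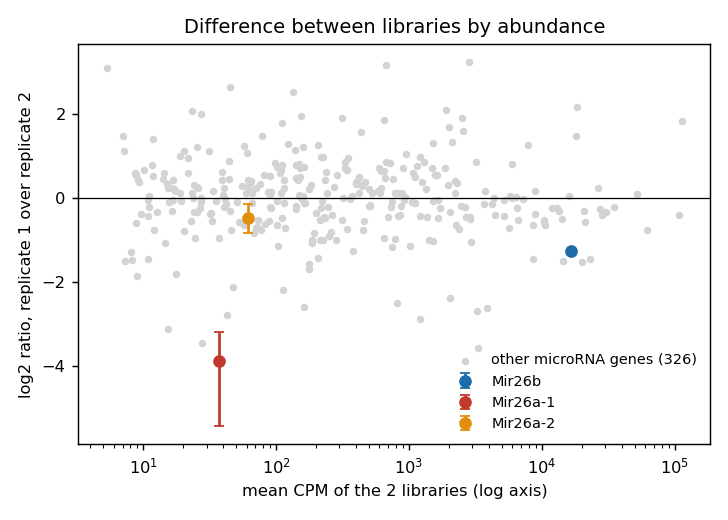
Log2 ratio, replicate 1 over replicate 2, against the mean CPM of the libraries on a log axis for 329 microRNA genes, with the miR-26 genes in colour and their exact 95% intervals. Mir26a-1 is the lowest point at -3.89, while Mir26b at -1.27 and Mir26a-2 at -0.47 lie among other genes.

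The genes most like each member in their levels were found by the Euclidean distance of log2(CPM + 1) over the 2 libraries, which describes 2 values per gene and carries no test. Nearest to Mir26b were Mir23a (10601 CPM in replicate 1 and 29452 in replicate 2, distance 0.359), Mir10b of the Hoxd cluster (7675 and 21089 CPM, distance 0.398) and Mir99a (11915 and 16204 CPM, distance 0.577). Nearest to Mir26a-2 were Mir1198 (45.5 and 68.9 CPM, distance 0.189), Mir20b (50.4 and 86.6 CPM, distance 0.304) and Mir199b (53.9 and 86.6 CPM, distance 0.306). Mir26a-1 had closest to it Mir200a, an epithelial microRNA counted at 3.95 and 51.7 CPM (distance 0.432), then Mir669l (10.4 and 75.4 CPM, distance 1.20) and Mir669e (2.47 and 28.4 CPM, distance 1.38). Mir200a thus had the same 8 reads in replicate 1 as Mir26a-1.

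Genes whose mature products are shared with a copy elsewhere had lower median levels than genes with products of their own, a description with no test. Of the 329 genes, 300 had mature products in the RefSeq table. The classes rest on the products listed there, by which Mirlet7a-2 (mean 117 CPM) counts as sharing none, so they can miss copies. The 38 genes that share some products with another gene, as Mir26a-1 and Mir26a-2 do, had a median level of 96.2 CPM (quartiles 29.7 and 226), and 3 of them reached 1000 CPM. The 5 genes that share every product had a median of 21.6 CPM, and 0 of them reached 1000 CPM. The 257 genes with no shared product, Mir26b among them, had a median of 288 CPM (quartiles 60.8 and 1558), and 82 of them (31.9%) reached 1000 CPM. Both Mir26a genes thus lay below the median of their own class, by the mean levels given above. The 6 sets of copies with the highest summed counts were led by Mir92-1 and Mir92-2 (2555 and 77.1 CPM in replicate 1), Mirlet7f-2 and Mirlet7f-1 (1402 and 73.1 CPM), Mir16-1 and Mir16-2 (1301 and 416 CPM), Mirlet7c-2 and Mirlet7c-1 (601 and 379 CPM) and Mir181b-2 and Mir181b-1 (652 and 16.8 CPM), while Mirlet7a-1 (123 CPM) shares a 3p product with Mirlet7c-2.

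The log2 ratios of the Mir26a genes lay further apart than those of the other measured pairs of copies, which is a description only. There were 19 pairs of measured genes that share a product listed by RefSeq. The log2 ratios of the members of a pair lay a median of 0.54 apart, and 16 pairs lay less than 1 apart. With the pseudocount of 1 CPM, Mir26a-1 and Mir26a-2 lay 3.41 apart, more than any other pair. Next came Mir181a-1 with Mir181a-2 at 1.80 and Mir199a-2 with Mir199b at 1.34. Mir181a-2 (44.5 CPM in replicate 1 and 9.97 in replicate 2) was itself admitted through replicate 1 alone, so its wide distance was favoured too. At the other end, Mirlet7f-1 with Mirlet7f-2 lay 0.06 apart and Mir92-1 with Mir92-2 0.17 apart. These distances carry no test, and the Mir26a value rests on the 8 reads of Mir26a-1 in replicate 1. Since the floor admitted Mir26a-1 through replicate 2 alone, a wide distance was favoured, and no conclusion about the copies is drawn from it.

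**Figure D4:**
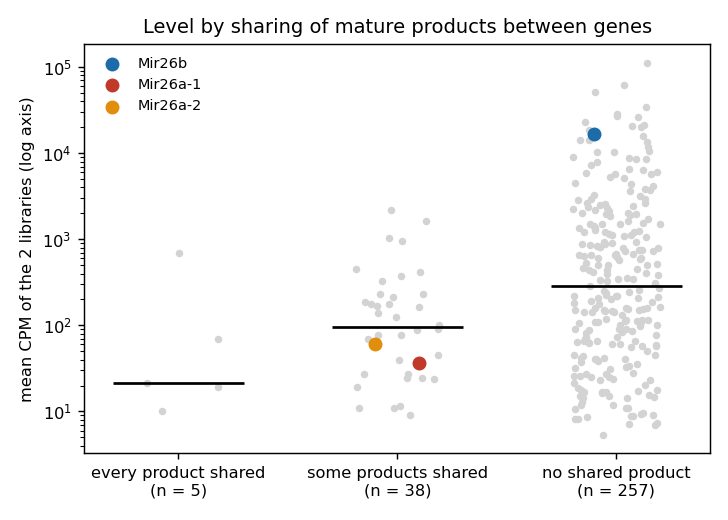
Mean CPM of the libraries on a log axis for 300 microRNA genes, with class medians as lines. Genes are grouped by whether every, some or no mature product listed by RefSeq is identical to that of another gene. The medians are 21.6, 96.2 and 288 CPM in that order, and Mir26a-1 and Mir26a-2 lie among the genes sharing some products while Mir26b lies high among those sharing none.

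Other microRNA families that sit in introns of paralogous host genes were compared as a list, with Mir103-1, Mir103-2 and Mir107 in the pantothenate kinase genes, Mir148b and Mir152 in the Copz coat protein genes, Mir204 and Mir211 in the Trpm channel genes, Mir218-1 and Mir218-2 in the Slit genes and Mir208a and Mir208b in the cardiac myosin genes. Of these 11 genes 8 were measured, and 2 were higher in replicate 1, 3 lower and 3 did not pass (median log2 ratio 0.03, against 0.01 for all genes tested). These counts are near those of all genes tested, of which 36.5% were higher and 37.7% lower. The higher genes include Mir208b (38.5 CPM in replicate 1 and 8.10 in replicate 2). The floor of 10 CPM admitted it through replicate 1 alone, so its direction was fixed. Mir107, of a family known for acting on insulin sensitivity in mice, led the list with 1959 CPM in replicate 1 and 3883 in replicate 2, a log2 ratio of -1.04. Its relatives Mir103-2 (34.6 and 57.0 CPM) and Mir103-1 (2.47 and 9.66 CPM) were counted far lower. Mir107 shares no product listed by RefSeq, whereas Mir103-2, Mir218-1 and Mir218-2 share some with another gene. Their counts can leave out reads that fit both genes, as for the Mir26a genes. The counts in this family thus do not rank its mature products. Mir152 (255 and 227 CPM) and Mir218-2 (97.4 and 85.4 CPM) did not pass, Mir148b was higher in replicate 1 (194 and 107 CPM, log2 ratio 0.81) and Mir204 lower (57.8 and 96.3 CPM, log2 ratio -0.77).

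MicroRNAs reported to be repressed by Myc, a list that includes the miR-26 genes, were called in both directions. Of 24 listed, 23 matched an annotated symbol and 21 were measured. Of these, 9 were higher and 12 lower in replicate 1, with a median log2 ratio of -0.23, where 74.2% of all genes tested passed, 36.5% higher and 37.7% lower. The 12 include the miR-26 genes themselves, with Mir26a-1 admitted through replicate 2 alone. The count and the median thus reuse their values and say nothing further about them. By mean level the list was led by Mirlet7g (54169 CPM in replicate 1 and 48930 in replicate 2, log2 ratio 0.10), Mir22 (30246 and 6556 CPM, log2 ratio 2.16), Mir26b, Mir30d (12270 and 13892 CPM, log2 ratio -0.23), Mirlet7d (8534 and 12259 CPM, log2 ratio -0.57) and Mir30e (8661 and 11919 CPM, log2 ratio -0.51).

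Other microRNAs reported to repress Ezh2 or Lin28b are mostly let-7 genes. Of 17 listed, 16 were measured, with 2 higher, 11 lower and 3 that did not pass (median log2 ratio -0.42), where 36.5% of all genes tested were higher and 37.7% lower with a median of 0.01. All 11 lower genes were let-7 genes or Mir98, and no Mir101 or Mir138 gene was called lower. Some are copies that share products, such as Mirlet7c-1 with Mirlet7c-2, so the 11 are not separate observations and describe let-7 rather than the list. Mirlet7b was counted at 46728 CPM in replicate 1 and 75959 in replicate 2 (log2 ratio -0.75), Mirlet7i at 32678 and 36762 CPM (log2 ratio -0.22), Mirlet7e at 7870 and 9957 CPM (log2 ratio -0.39) and Mir98 at 2468 and 2789 CPM (log2 ratio -0.22). Mirlet7g and Mirlet7d, given above, were also among the most abundant members. Mir101b, of a family known for repressing Ezh2, was higher in replicate 1 (469 and 346 CPM, log2 ratio 0.39), while its relative Mir101a did not pass (85.0 and 95.7 CPM, log2 ratio -0.22).

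The libraries held 5278986 reads in replicate 1 and 8555429 in replicate 2, of which 2023410 (38.3%) and 3208821 (37.5%) were assigned to microRNA genes. Markers of other cell types and tissues moved with the libraries in both directions, and each of the 22 marker genes had reads in both. Summed CPM was higher in replicate 1 for endothelium (177728 in replicate 1 against 47927 in replicate 2), liver (26733 against 9284), striated muscle (11312 against 4505), red blood cells (594 against 290) and kidney or gut epithelium (172 against 47.1). It was lower in replicate 1 for smooth muscle (28429 against 39314), neuroendocrine cells (27137 against 34005), leukocytes (2251 against 4077) and epithelium (395 against 859). Mir375, typical of neuroendocrine cells such as those of the medulla, was present at 24805 and 31924 CPM and carried the neuroendocrine sum, since Mir7b was higher in replicate 1 (2333 and 2081 CPM, log2 ratio 0.12), and no list defined the cortex. The part of cell makeup in the differences of the miR-26 genes was not tested, and in whole tissue fewer cells of a type and less RNA per cell cannot be told apart.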

How the data were processed

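The authors deposited raw read counts per microRNA gene, 1 table per library, on mm10 with GENCODE M21, per the text file that came with each table. No source used here names the aligner, the read counter or the trimming of adapters. Each table has counts irrespective of strand, on the strand of the gene and on the opposite strand, a meaning read from the values. The 4 summary lines (unmapped, several alignments, outside genes, ambiguous) stayed out of totals and tests. The strand-specific counts were used. Reads with several alignments made up 25.0% of all reads in replicate 1 and 27.2% in replicate 2.

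From these counts CPM, exact intervals and a two-sided exact binomial test, conditional on each gene's total, were computed, with p adjusted after Benjamini and Hochberg (R 4.3.3, edgeR 4.0.16 for TMM, DESeq2 1.42.0 for alternative size factors, Python 3.11.15, SciPy 1.17.1, pandas 2.3.3). The test was also run on data simulated from the counts of the measured genes, with 200 genes changed. Genes needed 10 CPM in either library. Sequences came from RefSeq (GRCm38.p6) by symbol. All 3 genes matched, and 300 of the 329 measured genes had mature products there.

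The members, gene lists and tests were chosen with earlier results of these data known. Named genes were the 3 members, the 3 nearest to each by level, its neighbours in mean CPM, up to 6 of the most abundant of each list and the 6 most abundant sets of copies. Pairs of copies and other genes named were chosen after values were seen. Alternatives covered the count column, the denominator, scaling, pseudocount, floor and leaving out each library.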

Additional observations from a re-analysis of the deposited data

How the results depend on the processing

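Mir26b and Mir26a-2 kept their direction and their side of the test with plain totals, DESeq2 size factors and counts irrespective of strand. The floor fixes the direction of Mir26a-1, so the outcome of its test is not given. The pseudocount does not enter the test. Over these settings, a pseudocount of 0.5 CPM and none, the last added after the data were seen, the log2 ratio ran from -1.30 to -1.22 for Mir26b, from -4.20 to -3.84 for Mir26a-1 and from -0.51 to -0.43 for Mir26a-2, whose adjusted p in the exact test ran from 0.00362 to 0.0153. The number of genes that differ between the libraries ran from 195 of 217 tested (89.9%) with a floor of 100 CPM to 247 of 790 (31.3%) with none. Mean levels depend on the denominator. With all reads as the denominator, Mir26b averaged 6248 CPM, Mir26a-2 23.1 CPM and Mir26a-1 13.9 CPM. Without the 10 most abundant genes in the denominator they were 32846, 122 and 71.9 CPM in that order. Irrespective of strand they were 21791, 81.7 and 47.1 CPM in the same order, where the counts of the genes stayed the same and the totals changed. Leaving out each library in turn, so that 1 library remains, gave 9948 to 23149 CPM for Mir26b, 51.9 to 70.1 CPM for Mir26a-2 and 3.95 to 70.1 CPM for Mir26a-1, where replicate 1 supplies the low value. The share of Mir26a-1 among Mir26a reads was 7.08% to 50.0%, and Mir26b per Mir26a read was 165 to 178. No paired analysis was possible because the series holds 1 group. The cause of these shifts was not tested. The value of Mir26a-1 in replicate 1 rests on 8 reads, and 1 read there is worth 0.494 CPM.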
